A study of Mus musculus with 2 samples.

Results

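The Wif1 and Coch valve-like fibroblasts are 75 cells among 1426 mouse heart cells sorted for a p16 reporter. They were selected by score, as the fibroblasts with the highest mean z of Wif1, Coch, Id4, Cyp2e1, Cpe and S100b, so the levels of these 6 genes are a description and carry no test. A cell counted as a fibroblast when the mean natural-log level of Dcn, Col1a2, Lum and Col3a1 was at least 1.5 and above that of the macrophage genes Lyz2, C1qa, C1qb and Fcer1g. This left 1145 fibroblasts, of which 1070 were not members. The mice were p16-FDR animals on C57BL/6, which carry FLP recombinase and a diphtheria toxin receptor fused to mCherry, and were 20 to 22 months old. Both heart samples were mCherry-positive cells obtained by FACS, in 1 group with no second group to compare it with, so every comparison here is between members and other fibroblasts of the same libraries. The marker of the sort reports activity of the p16 gene, and unsorted or mCherry-negative cells were not analysed here.

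Heart valves are thin leaflets of layered matrix, kept up by valve interstitial cells, a type of fibroblast with its own repertoire of transcription factors and secreted proteins. Their matrix is rich in proteoglycans and shares several genes with cartilage and tendon. Wnt and BMP signals shape valves in development and are much studied in valve thickening and calcification. WIF1 is a secreted protein that binds Wnt ligands and keeps them from their receptors, and cochlin, the product of Coch, is a secreted matrix protein best known from the inner ear.

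Cells carried the name of library Heart1 or Heart2, which the labels do not tie to the sample records. Whether 2 different animals or pools stand behind them is not stated, and the p-values reflect the spread between these libraries alone, which may be technical. The libraries shared 0 barcodes. Heart1 held 206 fibroblasts and Heart2 939. Members had a median of 11813 UMIs (unique molecular identifiers, each standing for 1 captured RNA molecule) in Heart1 and 11327.5 in Heart2, and the others 12170 and 8679. The median mitochondrial share was 3.04% and 4.53% in members and 3.54% and 5.19% in the others. Doublet calling marked 1 member, in Heart1, and 1 other fibroblast. In the text below, a level is the UMIs of a gene summed over the cells of a class in 1 library and scaled to counts per 1000000 UMIs of that sum (CPM), and the member value stands before the value of the others. A difference is members minus others in log2(CPM + 5), fitted with limma over both libraries, with its standard error (SE, n = 2 libraries) and a Benjamini-Hochberg adjusted p over 8667 genes.

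Members made up 25.7% of the fibroblasts of Heart1 (53 of 206; exact 95% interval 19.9% to 32.3%) and 2.34% of those of Heart2 (22 of 939; 1.47% to 3.53%). The larger library thus gave the smaller number of members. Intervals of shares and CPM cover counting error only. The score fell from 5.70 in the highest member through 2.24 in the median member to 0.599 and 0.593 in the lowest 2 members, and the first 2 cells outside stood at 0.591 and 0.553. There was no gap at the limit: the cells just inside it held 1 to 3 of the rule genes, as did those just outside. Of the 75 members, 38 held UMIs of 4 or more of the 6 genes, 32 of them in Heart1 and 6 in Heart2. Among the other fibroblasts 968 of 1070 held none and no cell held more than 3.

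**Figure D1:**
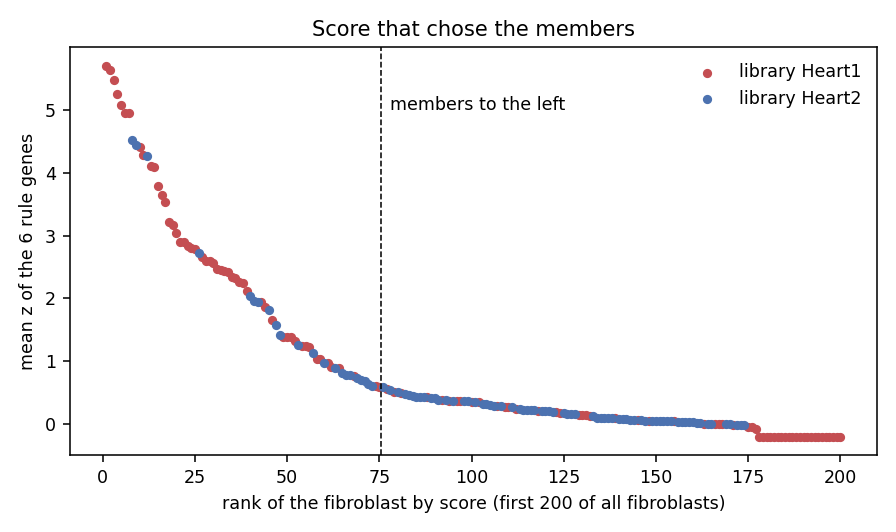
The mean z of the 6 rule genes (vertical axis) is plotted against the rank of each fibroblast (horizontal axis, first 200 of 1145), with 1 point per cell, coloured by library, and a dashed line after rank 75. The score falls without a step at the line, from 0.593 in the lowest member to 0.591 in the first cell outside, and most high scores belong to Heart1.

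Wif1 (GRCm38 chr10:121033960-121100650) had the highest level of the 6 rule genes in Heart1 members, but not in Heart2 members. Its level was 1509 CPM in Heart1 members and 442 CPM in Heart2 members, with 39 of 53 and 10 of 22 members holding a UMI. It was at 0 in all 1070 other fibroblasts, which follows from the rule, since a fibroblast with Wif1 scores high. In cells scored as macrophages, which should lack it, 0 of 37 and 1 of 210 cells held a UMI at median depths of 8133 and 9642 UMIs.

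Coch (chr12:51593341-51605771) did not mark the members of both libraries alike. Its level was 314 CPM in the members of Heart1, where 12 of 53 held a UMI, and it was at 0 in all 22 members of Heart2. The exact 95% interval of that share reaches 15.4%, and 3 of 22 cells would be 13.6%. The Coch part of the name therefore describes 12 of the 75 cells. Of those 12, 11 also held Wif1 and all 12 held Id4 and Cpe.

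The other 4 rule genes had UMIs in members of both libraries. Id4, which encodes an inhibitor of basic helix-loop-helix transcription factors, stood at 1020 against 9.75 CPM in Heart1 and 459 against 3.53 CPM in Heart2, with 44 of 53 and 9 of 22 members positive. In Heart2 1 member held 78 of its 111 UMIs (70.3%), and without it the level was 147 CPM. Cpe, the prohormone-processing carboxypeptidase E, was the most widely shared, with 45 of 53 and 18 of 22 members positive and a level of 376 against 21.5 CPM in Heart1 and 450.4 against 9.50 CPM in Heart2. S100b, a calcium-binding protein, stood at 287 against 4.88 CPM in Heart1 and 194 against 1.10 CPM in Heart2, with 39 of 53 and 7 of 22 members positive. Cyp2e1, a cytochrome P450 that oxidises small molecules, had a larger share of positive members in Heart2 (14 of 22) than in Heart1 (22 of 53), at 134 against 0.488 CPM in Heart1 and 289 against 0.852 CPM in Heart2.

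To test whether the 6 genes occur in the same cells, each was left out in turn and the 75 cells were chosen by the remaining 5. The left-out gene was then higher in the chosen cells for 5 of the 6. The difference was 6.52 ± 0.19 (adjusted p = 0.00205) for Wif1, 5.85 ± 0.21 (adjusted p = 0.00642) for Id4, 4.49 ± 0.30 (adjusted p = 9.68e-05) for Cyp2e1, 3.62 ± 0.22 (adjusted p = 0.000315) for Cpe and 4.30 ± 0.25 (adjusted p = 0.000719) for S100b. Coch did not pass, at 2.91 ± 1.12 (adjusted p = 0.252): its difference was 5.86 in Heart1 and -0.03 in Heart2. These genes had been put forward together from the same libraries, so the result describes these cells and is not independent evidence of a cell type.

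Across the genes outside the rule, 223 of 8667 were higher in members (2.57%) and 206 were lower (2.38%) at an adjusted p under 0.05. A rule of size alone, a difference of at least 2-fold in each library, gave 225 higher (2.6%) and 196 lower (2.26%). Every limma call had the same sign in both libraries. A gene with opposite signs in Heart1 and Heart2 could not pass this fit, so the shared sign is no separate evidence. Of the calls, 173 higher and 158 lower genes met both rules. The fit has 1 residual degree of freedom and takes most of its spread from the other genes, and without the library as a block it called only 22 genes higher and 14 lower. Counts above 0 over the fixed gene lists fall with it, except the 1 complement gene that was higher, while the 4 MHC class II genes described below were called there too. For 38 of the 223 higher genes a single member held over 50% of the UMIs in 1 library or more. Without the highest member of each library, 118 genes, against 173 with all members, were still at least 2-fold higher in both.

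**Figure D2:**
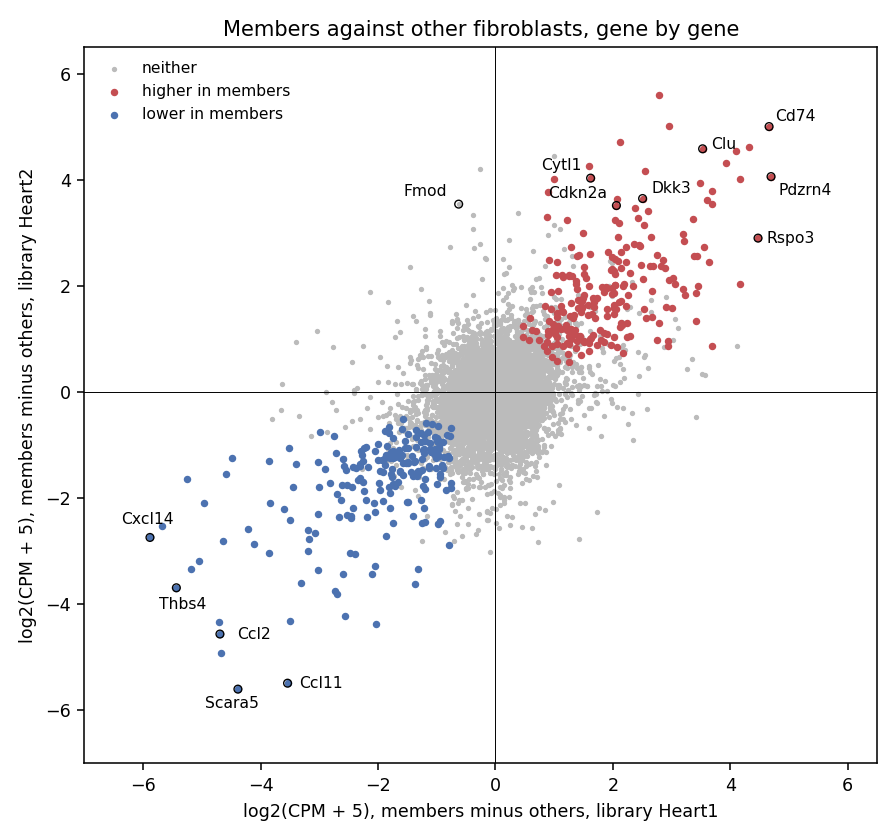
Each of the 8667 genes is a point at its difference between members and other fibroblasts in Heart1 (horizontal axis) and in Heart2 (vertical axis), in log2(CPM + 5). Red points are the 223 genes higher in members, blue points the 206 lower, grey points the rest. Fmod is an uncalled gene with opposite signs, at -0.63 and 3.54, with most of its Heart2 member UMIs in 1 cell.

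The valve part of the label was checked on 12 valve interstitial markers that the rule did not use, of which 11 were tested. Of these, 5 were higher in members (Cytl1, Dkk3, Tbx20, Twist1 and Prg4), 0 were lower and 6 passed in neither direction, with a median difference of 1.46 against -0.04 over all genes tested. The count was 3 without fibroblasts that held a macrophage UMI, 2 with z-scores within each library and 0 without the library block. Tbx20, a T-box transcription factor of heart and valve development, was at 638 against 244 CPM in Heart1 and 922 against 211 CPM in Heart2. It was higher in members of both libraries, by 1.73 ± 0.21 (adjusted p = 0.00244), and 50 of 53 and 20 of 22 members held it. Among the others 116 of 153 in Heart1 and 655 of 917 in Heart2 held it as well. Twist1, a helix-loop-helix factor of mesenchyme, was at 134 against 62.4 CPM in Heart1 and 119.8 against 61.5 CPM in Heart2. Its difference was 0.98 ± 0.21 (adjusted p = 0.0345), a call lost in 8 of 16 alternative settings.

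Cytl1, a small secreted cytokine-like protein known from cartilage, was at 1182 against 381 CPM in Heart1 and 558 against 29.3 CPM in Heart2, a difference of 2.83 ± 0.45 (adjusted p = 0.01). Its UMIs lay in few cells: 1 member held 46.5% of them in Heart1 and 1 held 64.4% in Heart2. In Heart1 it came from the weaker members, with 380.4, 2366 and 381 CPM in members with 4 to 6 rule genes, members with 1 to 3 and the others. In Heart2 the same 3 classes were at 520.3, 574 and 29.3 CPM. The member with 87 of the 135 Heart2 UMIs was among those with 1 to 3 rule genes. The 574 CPM thus came mostly from 1 cell, and without that cell the Heart2 members together were at 209 CPM. The call was lost in 6 of 16 settings. Prg4, which encodes lubricin, the lubricating proteoglycan of joints, was at 614 against 332 CPM in Heart1 and 479 against 44.2 CPM in Heart2. Its difference of 2.09 ± 0.45 (adjusted p = 0.0379) was lost in 10 of 16 settings.

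The remaining 6 markers did not pass. Hapln1, a link protein of the hyaluronan matrix, was at 32.4 against 0.975 CPM in Heart1 and 12.4 against 0.244 CPM in Heart2, with a difference of 2.19 (adjusted p = 0.0675). Sox9, a cartilage and valve transcription factor, had a difference of 0.59 (adjusted p = 0.149), and Vcan, the proteoglycan versican, a difference of 0.55 (adjusted p = 0.129). Fmod, a collagen-binding proteoglycan, was lower in the members of Heart1 and higher in those of Heart2, at 85.5 against 135 CPM in Heart1 and 202 against 12.8 CPM in Heart2. A single Heart2 member held 40 of the 49 Fmod UMIs there. Without that cell the level was 39.5 CPM and the Heart2 difference 1.32. Postn, which encodes periostin, was at 958 against 2295 CPM in Heart1 and 309.9 against 282 CPM in Heart2. Scx, a tendon transcription factor, had a difference of 0.24 (adjusted p = 0.812). The label valve-like thus rested mostly on Tbx20 and Dkk3, whose calls were lost in 1 of 16 and 1 of 16 settings. Postn and Scx did not pass. Tbx20 and Dkk3 also had UMIs in other fibroblasts, Tbx20 in most of them.

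Of 6 tested antagonists of Wnt signalling other than Wif1, 2 were higher in members and 0 were lower, with a median difference of 0.20. Dkk3, a secreted glycoprotein of the Dickkopf family (chr7:112116017-112159057), was at 1462 against 253 CPM in Heart1 and 756 against 55.7 CPM in Heart2. All 53 members of Heart1 and 20 of 22 in Heart2 held it, and the difference was 3.08 ± 0.26 (adjusted p = 0.0006). Among the others 83 of 153 in Heart1 and 189 of 917 in Heart2 held it. Sfrp2, a secreted Frizzled-related protein, was at 146 against 70.7 CPM in Heart1 and 471 against 24.4 CPM in Heart2, a difference of 2.51 ± 0.56 (adjusted p = 0.0426). Its call was lost in 12 of 16 settings, in 1 of which, with z-scores within each library, its sign turned to -0.48. Frzb, Sfrp1, Igfbp4 and Kremen1 did not pass: their differences were 0.37 (adjusted p = 0.475), -0.15 (adjusted p = 0.894), 0.03 (adjusted p = 0.974) and -0.03 (adjusted p = 0.985). Sfrp1 and Igfbp4 were lower in the members of Heart1 and higher in those of Heart2.

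Of 20 tested Wnt ligands, receptors and target genes, 5 were higher (Wnt5a, Rspo3, Axin2, Nkd1 and Nkd2) and 1, the receptor Fzd4, was lower, with a median of 0.18. Wnt5a, a ligand that mostly acts apart from beta-catenin, was at 144 against 7.80 CPM in Heart1 and 149 against 18.0 CPM in Heart2, a difference of 3.14 ± 0.28 (adjusted p = 0.000759). Rspo3, a secreted R-spondin that strengthens Wnt signals at the receptor, was at 171 against 2.93 CPM in Heart1 and 66.1 against 4.51 CPM in Heart2, a difference of 3.69 ± 0.39 (adjusted p = 0.00141). The members of both libraries stood far above the others for these ligands, and in Heart2 58.3% of the Wnt5a UMIs were in 1 cell.

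Axin2, Nkd1 and Nkd2, which Wnt signals are known to induce and which dampen them, were higher. Axin2, a scaffold of the beta-catenin destruction complex, was at 35.4 against 4.88 CPM in Heart1 and 37.2 against 4.02 CPM in Heart2, a difference of 2.13 ± 0.37 (adjusted p = 0.0135). Nkd1, which binds Dishevelled, was at 67.8 against 4.88 CPM in Heart1 and 41.3 against 4.14 CPM in Heart2, a difference of 2.61 ± 0.34 (adjusted p = 0.00357). Wnt16, a ligand, was at 0 in both groups of other fibroblasts, with 32.4 CPM in the members of Heart1, at least 22.2-fold higher against a floor of 3 UMIs per class, and 12.4 CPM in Heart2 members. It did not pass (adjusted p = 0.0639).

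**Figure D3:**
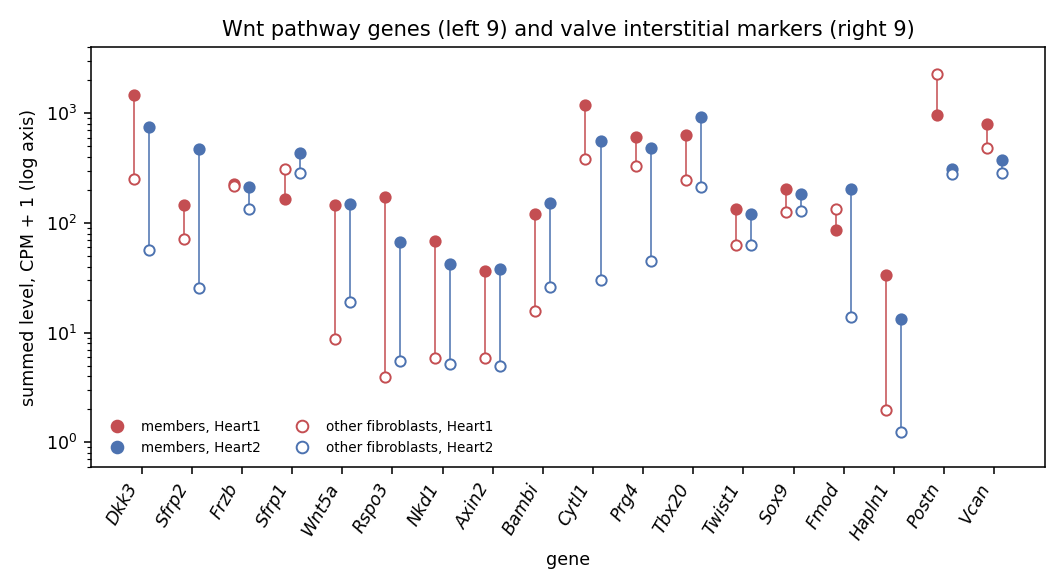
The summed level of each gene (CPM + 1, log axis) is shown for members (filled) and other fibroblasts (open) of Heart1 (red) and Heart2 (blue), joined by a line within each library. Wnt5a, Rspo3, Nkd1, Axin2, Bambi and Dkk3 lie higher in members of both libraries, while Sfrp1, Fmod and Postn move in opposite directions in Heart1 and Heart2.

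Among 19 tested BMP and Id genes other than Id4, 3 were higher in members and 2 lower, with a median difference of 0.82. Bambi, a decoy receptor that dampens BMP and TGF-beta signals, was at 121 against 14.6 CPM in Heart1 and 153 against 25.3 CPM in Heart2, a difference of 2.53 ± 0.24 (adjusted p = 0.000777). Id3, an inhibitor of helix-loop-helix factors, was at 806 against 447 CPM in Heart1 and 1302 against 421 CPM in Heart2, and Smad7, an inhibitory Smad, at 134 against 43.9 CPM in Heart1 and 74.4 against 35.8 CPM in Heart2; both passed, with differences of 1.23 and 1.23. The 2 lower genes were ligands. Bmp4 was at 32.4 against 118 CPM in Heart1 and 45.5 against 167 CPM in Heart2 and its difference was -1.74 ± 0.21 (adjusted p = 0.0029). Bmp6 was at 4.42 against 56.1 CPM in Heart1 and 0 against 64.8 CPM in Heart2, with a difference of -3.25 ± 0.40 (adjusted p = 0.00281). Of 17 tested TGF-beta genes 0 were higher and 1, the co-receptor Tgfbr3, was lower, with a difference of -1.01 (adjusted p = 0.0329), a call lost in 10 of 16 settings.

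Of 27 tested fibroblast transcription factors 4 were higher (Tbx20, Gata4, Hand2 and Twist1) and 0 lower, with a median of 0.17. Gata4, a zinc-finger factor of heart development, was at 98.7 against 36.1 CPM in Heart1 and 103 against 45.8 CPM in Heart2, a difference of 1.21 ± 0.22 (adjusted p = 0.0186). Hand2, a helix-loop-helix factor of the same programme, was at 165 against 61.5 CPM in Heart1 and 169 against 72.7 CPM in Heart2, a difference of 1.26 ± 0.20 (adjusted p = 0.01). Levels in the 2 libraries were close to each other for both genes. Meox2, a homeobox factor, was at 13.3 against 46.3 CPM in Heart1 and 12.4 against 31.3 CPM in Heart2 and did not pass (adjusted p = 0.0557).

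Among the 15 largest rises were genes outside these lists. Atp1b1, the beta subunit of the sodium pump, was at 193 against 4.88 CPM in Heart1 and 252 against 5.48 CPM in Heart2, a difference of 4.47 ± 0.25 (adjusted p = 0.000133), with 36 and 14 members positive. Clu, which encodes the secreted chaperone clusterin, was at 824 against 66.8 CPM in Heart1 and 264 against 6.21 CPM in Heart2, a difference of 4.06 ± 0.27 (adjusted p = 0.000327). 1500015O10Rik, for which the files give no other symbol, was at 1342 against 191 CPM in Heart1 and 901 against 13.6 CPM in Heart2, a difference of 4.19 ± 0.52 (adjusted p = 0.00293). These 3 genes were spread over many members, none of which held more than 32.6% of their UMIs in a library.

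Pdzrn4, a PDZ and RING finger protein, was at 137 against 0.488 CPM in Heart1 and 82.6 against 0.244 CPM in Heart2, a difference of 4.38 ± 0.34 (adjusted p = 0.000451). Mal, a membrane protein of lipid rafts and myelin, was at 78.1 against 0.488 CPM in Heart1 and 95.0 against 0 CPM in Heart2, and the 0 in Heart2 makes it at least 260.2-fold higher there. Cadm1, a cell adhesion molecule, was at 97.3 against 3.41 CPM in Heart1 and 116 against 4.75 CPM in Heart2. Their values lay far above the others in both libraries. In Heart2 Pdzrn4 was at 260 CPM in members with 4 to 6 rule genes but 5.92 CPM in those with 1 to 3. Mal was at 178 and 59.2 CPM and Cadm1 at 164 and 94.7 CPM in the same 2 classes.

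Lmcd1, a LIM-domain regulator of GATA factors, was at 318 against 20.0 CPM in Heart1 and 119.8 against 5.72 CPM in Heart2, a difference of 3.62 ± 0.23 (adjusted p = 0.000296). Aqp1, a water channel, was at 116 against 4.39 CPM in Heart1 and 90.9 against 1.95 CPM in Heart2, but 1 member held 81.8% of its UMIs in Heart2. Bmx, a tyrosine kinase known from endocardium and arteries, was at 41.3 against 0.975 CPM in Heart1 and 161 against 0.122 CPM in Heart2, with 5 and 6 positive members. Cdo1, a cysteine dioxygenase, was at 58.9 against 9.75 CPM in Heart1 and 207 against 3.04 CPM in Heart2. For these genes the members of both libraries were higher, in few cells where Aqp1 and Bmx are concerned.

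The invariant chain Cd74 and the MHC class II genes H2-Aa, H2-Ab1 and H2-Eb1, whose products present peptides to T cells, were all among the 15 largest rises. The 4 genes were put together as a list after their values were seen. Cd74 was at 208 against 3.41 CPM in Heart1 and 281 against 3.90 CPM in Heart2, a difference of 4.83 ± 0.25 (adjusted p = 0.000109). H2-Ab1 was at 97.3 against 0.975 CPM in Heart1 and 169 against 2.44 CPM in Heart2, H2-Eb1 at 102 against 0.975 CPM in Heart1 and 128 against 3.17 CPM in Heart2 and H2-Aa at 61.9 against 0.975 CPM in Heart1 and 86.8 against 0.974 CPM in Heart2. They rose in few cells. In Heart1 19 of 53 members held any UMI of the 4 genes (318 in all) and 1 cell held 165 of them; in Heart2 5 of 22 members did (161 in all) and 1 cell held 115. Without its highest member Cd74 was at 48.3 and 30.6 CPM.

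The 2 cells with 165 and 115 MHC class II UMIs held 0 UMIs of Ptprc, Itgax, Cd209a, Cd79a, Coro1a, Tyrobp and Fcer1g, genes of blood cells looked up after the 2 cells were seen. They held 4 and 2 UMIs of Lsp1, which blood cells also express, and 23 and 31 UMIs of Wif1. In members without any UMI of 7 macrophage markers other than Lyz2 the 4 genes summed to 499.8 CPM in Heart1 (49 cells) and 739.9 CPM in Heart2 (20 cells), against 6.38 and 10.4 CPM in such other fibroblasts. The 4 members of Heart1 with a macrophage UMI held 173 such UMIs, 170 of them in the predicted doublet, and 8 UMIs of the 4 genes. Cells scored as macrophages had 13760 and 17756 CPM of Cd74. UMIs of the 4 genes were found in 8.50% and 8.83% of other fibroblasts, a low share that was alike in both libraries. Cd74 stood at 343, 7.30 and 3.41 CPM in Heart1 members with 4 to 6 rule genes, members with 1 to 3 and others, and at 917, 5.92 and 3.90 CPM in Heart2.

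**Figure D4:**
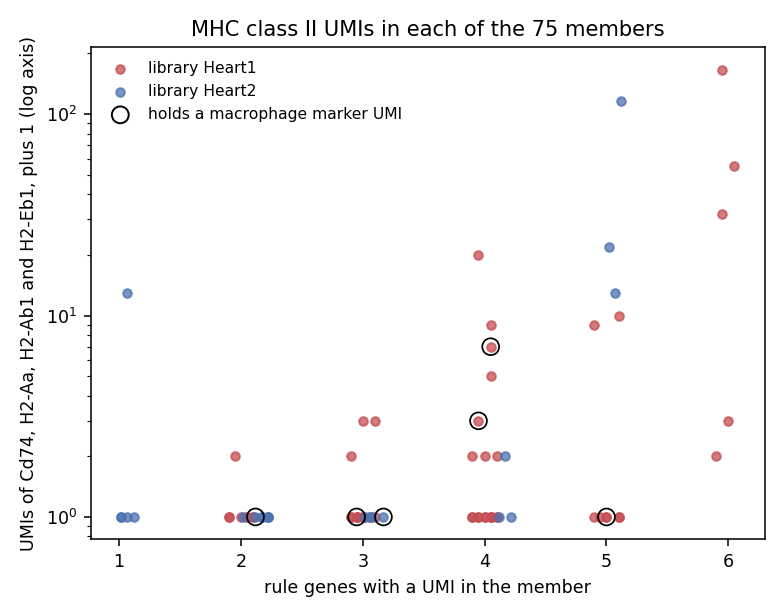
Each of the 75 members is plotted at its number of rule genes with a UMI (horizontal axis, shifted slightly to separate points) and its summed UMIs of Cd74, H2-Aa, H2-Ab1 and H2-Eb1 plus 1 (vertical log axis), coloured by library. Circled cells hold a macrophage marker UMI. The members with 165 and 115 UMIs are not circled and hold 6 and 5 rule genes.

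Because the class II genes moved together, the stretch of promoter that holds a shared element is shown for the 2 of them with an entry in the RefSeq promoter table. Class II promoters are known for a conserved set of boxes, of which the Y box binds NF-Y. Capitals mark the letters CTGATTGG, searched on both strands in windows of 300 bases. Sequences run 5′ to 3′ on the gene's strand, upstream of the start, from RefSeq on GRCm38.p6, at chr17:34287850-34287929 (minus strand) for H2-Aa and chr17:34305750-34305829 (plus strand) for H2-Eb1.
H2-Aa: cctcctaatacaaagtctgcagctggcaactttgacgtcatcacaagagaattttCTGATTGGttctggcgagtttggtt
H2-Eb1: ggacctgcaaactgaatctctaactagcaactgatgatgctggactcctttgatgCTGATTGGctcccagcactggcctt
The element begins 51 and 62 bases before the start. It was found in 4.10% of all 32851 promoters, in 4.95% of the 8793 promoters of genes tested and in 5.77% of the 208 promoters of genes higher in members. A match is a description of these letters only.

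Of 14 tested markers of other fibroblast states, 7 were lower in members (Pi16, Cd248, Sema3c, Hsd11b1, Thbs4, Ccl11 and Smoc2) and 1, Inmt, was higher, with a median of -1.39. Without its highest member Inmt was at 56.5 against 33.2 CPM in Heart1 and 75.1 against 88.0 CPM in Heart2. Scara5, a ferritin receptor of adventitial fibroblasts, was at 0 in both groups of members against 99.5 and 238 CPM in the others. It was at least 22.5-fold lower in Heart1 and at least 19.2-fold lower in Heart2. Cd248, the membrane protein endosialin, was at 0 against 119 CPM in Heart1 and 12.4 against 116 CPM in Heart2. Smoc2, a matricellular calcium-binding protein, was at 19.2 against 792 CPM in Heart1 and 178 against 1647 CPM in Heart2, and its difference was -4.11 ± 0.37 (adjusted p = 0.000772).

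Pla1a, a phospholipase, was at 5.89 against 272 CPM in Heart1 and 8.26 against 397 CPM in Heart2, a difference of -4.80 ± 0.23 (adjusted p = 0.000109). Clec3b, which encodes tetranectin, was at 8.84 against 706 CPM in Heart1 and 207 against 1210 CPM in Heart2. Ly6c1, a surface protein, was at 0 in both groups of members against 125 and 95.7 CPM. Members were lower than others in both libraries for each of these genes. The difference of Clec3b was smaller in Heart2 (-5.68 in Heart1 and -2.52 in Heart2). Clec3b was at 0 in members with 4 to 6 rule genes in both libraries. In those with 1 to 3 it was at 21.9 CPM in Heart1 and 296 CPM in Heart2.

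Of 25 tested secretory factors 6 were higher and 7 lower, with a median of 0.22. The chemokines formed most of the losses. Ccl2, which draws monocytes, was at 5.89 against 277 CPM in Heart1 and 4.13 against 211 CPM in Heart2, a difference of -4.63 ± 0.24 (adjusted p = 0.000109). Ccl7, a related chemokine, was at 2.95 against 84.4 CPM in Heart1 and 0 against 95.1 CPM in Heart2. Ccl11, which draws eosinophils, was at 0 against 53.2 CPM in Heart1 and 0 against 219.6 CPM in Heart2. The members held almost none of the 3 chemokines. Cxcl14 was lower too, at 14.7 against 1160 CPM in Heart1 and 380.2 against 2571 CPM in Heart2. Of the 92 Cxcl14 UMIs in Heart2 members 1 cell held 91, and without that cell the level was 4.37 CPM. The 6 higher factors were Ccl19, Mmp3, Fgf2, Igf1, Igfbp3 and Igfbp5. Igfbp5, which binds insulin-like growth factors, was at 369.9 against 176 CPM in Heart1 and 1046 against 187 CPM in Heart2. Igfbp3 without its highest member was at 25.4 against 28.8 CPM in Heart1 and 477 against 48.2 CPM in Heart2. With median ratio scaling 3 of the factors were higher.

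Of 10 tested complement genes 5 were lower (C1s1, C3, C7, Serping1 and Cd55) and C4b was higher, with a median of -1.03. Without fibroblasts that held a macrophage UMI 3 were lower. C3, the central complement protein, was at 240.2 against 1017 CPM in Heart1 and 727 against 1579 CPM in Heart2, a difference of -1.59 ± 0.22 (adjusted p = 0.00553). C4b, the component that acts just before C3, was at 586 against 152 CPM in Heart1 and 748 against 115 CPM in Heart2, a difference of 2.28 ± 0.21 (adjusted p = 0.000777). Neighbouring steps of the cascade thus differed in direction. Of 16 tested interferon genes 1, Ifi204, was lower and 0 were higher.

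Collagen genes were lower or did not pass. Of 23 tested collagen genes 8 were lower and 0 higher, with a median of -0.89. Col4a1, a basement membrane chain, was at 91.4 against 474 CPM in Heart1 and 178 against 557 CPM in Heart2, a difference of -1.97 ± 0.21 (adjusted p = 0.00141). Col8a1, a short-chain collagen, was at 94.3 against 737 CPM in Heart1 and 116 against 325 CPM in Heart2, and Col5a3, a chain of the fibril-forming collagens, at 19.2 against 137 CPM in Heart1 and 12.4 against 318 CPM in Heart2. Lamb1, a laminin chain, was at 1.47 against 231 CPM in Heart1 and 53.7 against 586 CPM in Heart2. Col4a1 and Lamb1, both of basement membranes, were thus lower in members of both libraries.

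Of 16 tested elastic fibre genes 6 were lower (Fbn1, Fbln2, Mfap5, Emilin2, Loxl1 and Loxl2) and Mfap2 was higher. The calls of Mfap5 and Emilin2 were lost in 12 of 16 and 8 of 15 settings, and without fibroblasts that held a macrophage UMI 2 genes of the list were lower, against 3 with median ratio scaling or thinning. Fbn1, the microfibril protein fibrillin, was at 124 against 428 CPM in Heart1 and 90.9 against 313 CPM in Heart2, a difference of -1.74 ± 0.18 (adjusted p = 0.00115). Of 11 tested small leucine-rich proteoglycans 3 were lower and 0 higher, led by Aspn, which encodes asporin, at 39.8 against 823 CPM in Heart1 and 86.8 against 541 CPM in Heart2. Among 17 tested cartilage and tendon genes 3 were higher (Prg4, Cytl1 and Sox6) and 4 lower (Tnmd, Cnmd, Matn2 and Thbs4). Tnmd, the tendon protein tenomodulin, was at 0 in both groups of members against 115 and 9.50 CPM, a call lost in 13 of 15 settings. Thbs4, a tendon and muscle matrix protein, was at 10.3 against 657 CPM in Heart1 and 4.13 against 113 CPM in Heart2, a difference of -4.56 ± 0.38 (adjusted p = 0.0006).

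Of 18 tested proteases and inhibitors 3 were higher (Mmp3, Timp3 and Adamts15) and 5 lower (Mmp2, Mmp14, Adamts5, Htra3 and Ctsk). The call of Adamts15 was lost in 10 of 15 settings. Timp3, a matrix-bound metalloproteinase inhibitor, was at 2657 against 825 CPM in Heart1 and 2083 against 622 CPM in Heart2, a difference of 1.71 ± 0.15 (adjusted p = 0.000689), and all 75 members held it. Adamts5, which cuts aggrecan and versican, was at 19.2 against 410.2 CPM in Heart1 and 86.8 against 666 CPM in Heart2, a difference of -3.49 ± 0.28 (adjusted p = 0.00057). Of 9 tested calcification genes 4 were higher (Mgp, Ank, Msx1 and Ahsg) and Spp1 was lower. In Heart2 1 member held 18 of the 25 Ank UMIs, and without it the difference there was -0.05; after thinning 1 of the 9 genes was higher. Ahsg, which encodes the mineral-binding protein fetuin-A, was at 343 against 103 CPM in Heart1 and 182 against 56.1 CPM in Heart2, a difference of 1.65 ± 0.19 (adjusted p = 0.00209). Spp1, which encodes osteopontin, was at 14.7 against 282 CPM in Heart1 and 0 against 35.8 CPM in Heart2, a difference of -3.45 ± 0.31 (adjusted p = 0.000772). Mgp, an inhibitor of calcification, was abundant in both classes, at 13104 against 9490 CPM in Heart1 and 12683 against 5361 CPM in Heart2.

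Of 9 tested prohormone and neuropeptide genes other than Cpe, 2 were lower and 0 higher. Pcsk6, a proprotein convertase, was at 30.9 against 325 CPM in Heart1 and 62.0 against 528 CPM in Heart2, a difference of -3.09 ± 0.19 (adjusted p = 0.000274), and Penk, which encodes proenkephalin, was at 60.4 against 121 CPM in Heart1 and 78.5 against 249 CPM in Heart2. Of 26 tested genes of oxidative and xenobiotic metabolism other than Cyp2e1, 3 were higher (Aldh1a1, Aox3 and Inmt) and 1, Gsta3, was lower, with a median of 0.01.

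All cells were sorted on a p16 reporter, and the Cdkn2a RNA that encodes p16 was looked at directly. Cdkn2a (chr4:89274471-89294653) was at 199 against 43.9 CPM in Heart1 and 57.9 against 0.487 CPM in Heart2, a difference of 2.79 ± 0.36 (adjusted p = 0.00327). It was held by 33 of 53 members and 39 of 153 others in Heart1, and by 3 of 22 members and 4 of 917 others in Heart2. Members were higher in both libraries, but in Heart2 only 14 UMIs were found in members, 9 of them in 1 cell. After thinning to 3000 UMIs per cell the shares were 34.0% (95% interval 21.5% to 48.3%) and 9.15% (95% interval 5.09% to 14.9%) in Heart1. In Heart2 they were 9.09% (95% interval 1.12% to 29.2%) and 0 of 917 cells, where 3 cells at that depth would be 0.327%. Cells scored as macrophages held a UMI in 43.2% (Heart1) and 27.1% (Heart2) before thinning, and in 21.6% and 13.3% after it. The table counts Cdkn2a as 1 gene, so p16 and the second protein of the locus cannot be told apart. Without the library block the adjusted p was 0.424, and with voom weights 0.0682.

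Cdkn2b (chr4:89306299-89311039), the neighbouring gene, which encodes the inhibitor p15, was at 121 against 21.9 CPM in Heart1 and 78.5 against 7.55 CPM in Heart2. Its difference was 2.48 ± 0.27 (adjusted p = 0.00141), and 33 of 53 and 8 of 22 members held it. In Heart2 1 member held 11 of its 19 UMIs, and without it the level was 35.6 CPM. Cdkn1a, which encodes p21, was at 273 against 222 CPM in Heart1 and 141 against 152 CPM in Heart2 and did not pass (adjusted p = 0.891). Of 12 tested genes of the senescence core list 2, the Cdkn2 pair, were higher and 0 lower, with a median of 0.09. Of 12 tested p53 targets 0 were higher and 0 lower in limma, with a median of -0.12; 2 of them were under an unadjusted p of 0.05, both with higher values in members.

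**Figure D5:**
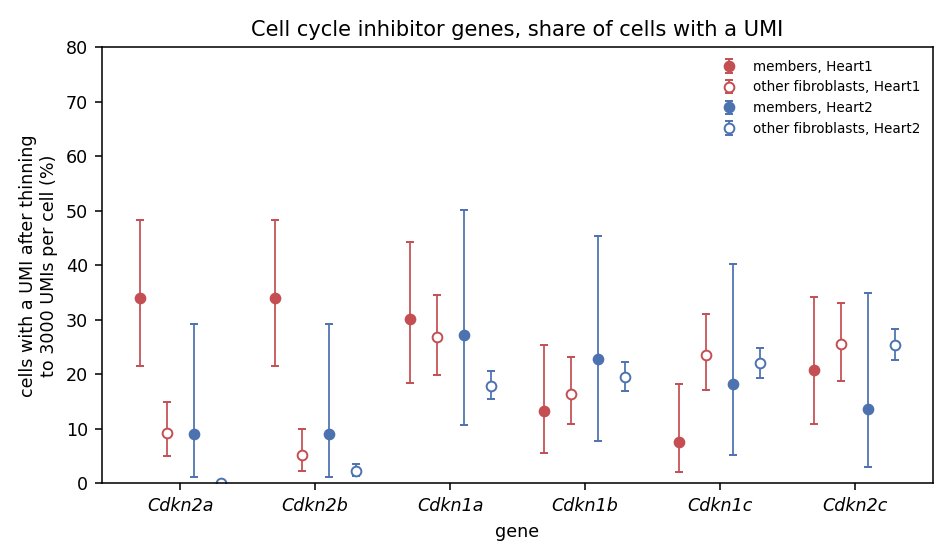
The share of cells with a UMI after thinning to 3000 UMIs per cell (vertical axis, %) is shown for 6 inhibitor genes, for members (filled) and other fibroblasts (open) of Heart1 (red) and Heart2 (blue), with exact 95% intervals. For Cdkn2a and Cdkn2b the members of Heart1 lie above the others, at 34.0% against 9.15% and 5.23%, and the intervals of Heart2 members are wide.

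Genes of immediate early response and tissue dissociation moved with the members and are given beside the results above: 9 of 20 tested were higher and 0 lower, with a median of 0.87 (5 higher with median ratio scaling). Fos, a transcription factor induced within minutes of stimulation, was at 2038 against 496 CPM in Heart1 and 504 against 134 CPM in Heart2, a difference of 1.95 ± 0.16 (adjusted p = 0.00057). Nr4a1 and Zfp36 were higher mainly in Heart1, with differences of 2.94 in Heart1 and 0.87 in Heart2 and of 3.68 in Heart1 and 0.88 in Heart2, and their calls were lost in 9 of 16 and 13 of 16 settings. The part of dissociation in the other differences was not tested.

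Markers of other cell types were counted in the same sums. The fibroblast markers summed to 29498 against 25908 CPM in Heart1 and 25708 against 28305 CPM in Heart2. Of 9 endothelial or endocardial markers 4 (Cdh5, Cldn5, Kdr and Egfl7) were at 0 in the members of both libraries. The list held 29 UMIs in 18 Heart1 members and 11 UMIs in 7 Heart2 members, summing to 42.7 against 58.0 CPM in Heart1 and 45.5 against 28.6 CPM in Heart2. Lymphocyte markers held 2 UMIs in Heart1 members and 0 in Heart2. Of the Schwann cell markers, Mbp was at 0 in Heart1 members, and Ncam1, a cell adhesion molecule, was higher, at 48.6 against 4.88 CPM in Heart1 and 70.3 against 5.97 CPM in Heart2. Macrophage markers summed to 369.9 against 12.2 CPM in Heart1 and 24.8 against 19.7 CPM in Heart2, with UMIs of markers other than Lyz2 in 4 and 2 members. A single member of Heart1, the predicted doublet, held 170 of the 173 UMIs of markers other than Lyz2, and C1qa and C1qb were at 0 in the other members of that library. Cardiomyocyte markers summed to 86.9 against 40.5 CPM and 41.3 against 20.7 CPM.

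Of 5 tested pericyte and smooth muscle markers, 3 were higher (Rgs5, Kcnj8 and Abcc9) and 0 lower. The list of 6 in the table summed to 555.5 against 258.5 CPM in Heart1 and 256.2 against 74.8 CPM in Heart2. The sums of the Schwann cell and cardiomyocyte lists were also higher in members of both libraries. Abcc9, a channel subunit, was at 133 against 14.1 CPM in Heart1 and 124 against 18.0 CPM in Heart2, a difference of 2.67 ± 0.24 (adjusted p = 0.000772), and Rgs5, a regulator of G-protein signals, was at 102 against 0.975 CPM in Heart1 and 16.5 against 0.244 CPM in Heart2. The Rgs5 level in Heart2 members lay close to the 12.4 CPM that 3 UMIs make there. Des was at 0 in Heart1 members. The part of pericyte RNA in the other results was not tested.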

How the data were processed

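Single-cell libraries were prepared with 10x 3' v3 chemistry from 2 samples of mCherry-positive heart cells. Reads were processed with Cell Ranger 3.0.2 on mm10, per the submitters' processing notes. The authors deposited 1 table of natural log values, ln(1 + UMIs per 10000) for 15247 genes in 1426 cells; the tool that normalised it is not given in the sources used here. All 4459440 values above 0 lay within 1e-06 of whole UMI steps (3164 to 79999 UMIs per cell), so UMIs were recovered and summed per library and class. Since the deposited unit is a log, these 4 sums were tested with limma 3.58.1 in R 4.3.3 on log2(CPM + 5) with the library as a block, over genes averaging at least 10 CPM in the sums and without the rule genes. Doublets were called with scanpy 1.11.5 and kept, and an alternative left them out. Exact binomial intervals came from scipy 1.17.1. On simulated data with 8479 genes the fit called 74% and 76% of genes changed by 1 in log2 upward and downward, and 100% of those changed by 2. The changed genes there were drawn from those averaging at least 50 CPM, with noise of equal size in every gene. These shares therefore do not cover genes nearer 10 CPM or genes carried by 1 cell.

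Named genes are the 15 largest differences each way among calls of at least 2-fold in both libraries and 50 CPM, up to 4 per gene list, all tested Wnt antagonists, valve interstitial markers and senescence core genes, and the rule genes. Genes given as members of a list's count, and marker genes, were in part chosen after their values were seen. The members and lists were chosen with earlier results of these data known. Gene coordinates come from the GENCODE annotation of GRCm38. Alternatives changed the pseudocount, gene filter, scaling, block, number of members, score, depth and cell filters. Unsorted cells were not analysed here. A marker result is not reported here.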

Additional observations from a re-analysis of the deposited data

How the results depend on the processing

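The number of genes higher in members, 223, was 95 with no gene filter, 75 with a 50 CPM filter, 22 without the library block, 126 with 50 members, 133 after thinning and 358 with others matched on UMIs. The number lower, 206, was 108, 92 and 14 under the first 3 of these, 131 with voom weights, 135 with 50 members and 359 with matched others. The 2-fold rule gave 100 higher and 102 lower with a pseudocount of 20 CPM, 91 and 96 with the 50 CPM filter, 117 lower with 100 members and 333 lower after thinning. In 1 library alone it gave 428 to 482 higher and 448 to 655 lower. The member share of Heart1 was 19.4% with 50 members and 17.5% with z-scores within each library, and that of Heart2 1.06%, 4.15% and, with 100 members, 4.05%. Cdkn2a kept its direction, at 2.79 (adjusted p = 0.424) without the library block and 2.52 (adjusted p = 0.0682) with voom weights. Sfrp2 turned to -0.48 (adjusted p = 0.943) with z-scores within each library. The cause of these shifts was not tested, except that fewer genes entered under the 50 CPM filter. Of 79 named genes called, 21 to 78 were called under the alternatives, with the lowest number without the library block. Leaving out a library leaves limma no residual degrees of freedom, so no such test was made. The signs of Cdkn1a, Igfbp4, Kremen1, Rb1, Scx, Trp53, Fmod and Glb1, none of them called, changed under 1 alternative or more. Depth limits Heart2 most, where 22 members and 241986 UMIs put 3 UMIs at 12.4 CPM. The sums without each gene's highest member, and the fit without fibroblasts with macrophage UMIs, were chosen after seeing the data; the latter called 187 higher and 168 lower.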
